A study of Mus musculus with 48 samples.

Results

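The genes described here are 10 transcriptional targets of the tumour suppressor p53, Cdkn1a, Ccng1, Mdm2, Bax, Bbc3, Pmaip1, Trp53inp1, Zmat3, Phlda3 and Sesn1, out of 18178 genes with a symbol in the deposited expression table. The members were chosen by name from well-known p53 targets, by a reader who knew earlier results of these data and who singled out Ccng1. Which measured values weighed in that choice is not recorded, so the levels and differences of the 10 genes are given as a description with no p-value. Where the fit across all genes called some of them, their count stands beside the share of all genes called, and nothing is supported with it. All 10 were found in the table, and all 10 passed the minimum for testing, a mean of 1 on the log2 scale. Tests are given for p53 targets and related genes outside the 10. Those lists were also chosen with earlier results of these data known, so their counts and p-values are no independent check.

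RNA-Seq was performed on 48 samples of the STHdh lines, mouse striatal progenitor lines that model Huntington's disease and stem from knock-in mice labelled C57BL/6. STHdhQ7 carries wild-type huntingtin, and STHdhQ111 is homozygous for an expanded CAG repeat. Each of 16 conditions had 3 samples. The vehicle condition was measured in both lines, and the 14 compounds, all protective in the study's viability screen, were applied to STHdhQ111. Cells were seeded at 33 °C and then kept for 24 h in serum-free medium with compound or vehicle, so both vehicle controls were serum-starved too. A dose of 10 µM was used for DKI (diacylglycerol kinase inhibitor II), selisistat, loxapine, meclizine and cyproheptadine, and 5 µM for pizotifen. Cysteamine was used at 250 µM, sodium butyrate at 1 mM, 4-deoxypyridoxine at 4 mM and fingolimod phosphate at 250 nM. Trichostatin A was used at 10 nM, nortriptyline at 1 nM, and nicotinamide and haloperidol at 0.5 nM. The study places cyproheptadine, loxapine and pizotifen in Group A and DKI and meclizine in Group B, names used here. Each genotype is represented by 1 cell line, so the genotype and every other difference between these lines cannot be told apart. The lines were immortalized with a temperature-sensitive SV40 large T antigen, a protein that binds p53 and that is stable at the seeding temperature. p53 protein was not measured in these samples.

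p53 is a transcription factor that is normally kept scarce by the ubiquitin ligase Mdm2, itself a p53 target, and that is stabilized by DNA damage and other stress. It binds pairs of a short degenerate sequence, the p53 half-site, in promoters and introns of its targets. Cdkn1a (p21) then blocks cyclin-dependent kinases and, through the repressor complex DREAM, lowers mitotic genes, while Bax, Bbc3 (Puma) and Pmaip1 (Noxa) act on mitochondria in apoptosis. Cyclin G1 (Ccng1) binds protein phosphatase 2A and takes part in the Mdm2 feedback. Mutant huntingtin has been reported to bind p53, and p53 has been studied in Huntington's disease for that reason.

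The promoter sequences that hold a p53 half-site are shown first, because they are where the sequence of these genes bears on their common regulator. RefSeq (GRCm38.p6) gave 11 promoter windows of 300 bases, from 250 bases before to 50 after a transcription start, for 7 members. Pmaip1, Trp53inp1 and Zmat3 had no entry. Both strands were searched for exact matches to the p53 half-site, a motif of 10 letters that allows several bases at most positions. It was found in 5 of the 11 windows, and in 8.36% of 32851 promoter windows of the same length. The half-sites are in capitals below, 5′ to 3′ along the gene.
Ccng1, chr11:40755237-40755536, minus strand: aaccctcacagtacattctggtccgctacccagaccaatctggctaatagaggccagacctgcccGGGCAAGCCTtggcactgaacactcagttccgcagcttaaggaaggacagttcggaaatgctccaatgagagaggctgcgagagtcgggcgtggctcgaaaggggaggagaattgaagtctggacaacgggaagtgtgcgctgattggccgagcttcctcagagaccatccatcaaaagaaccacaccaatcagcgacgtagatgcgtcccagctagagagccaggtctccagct
Cdkn1a, chr17:29090729-29091028, plus strand: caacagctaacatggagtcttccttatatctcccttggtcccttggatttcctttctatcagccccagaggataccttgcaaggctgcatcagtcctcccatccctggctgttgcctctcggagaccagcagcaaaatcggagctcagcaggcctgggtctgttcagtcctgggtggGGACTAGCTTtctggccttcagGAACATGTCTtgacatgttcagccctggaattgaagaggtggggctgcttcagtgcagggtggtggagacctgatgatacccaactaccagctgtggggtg
Mdm2, chr10:117710709-117711008, minus strand: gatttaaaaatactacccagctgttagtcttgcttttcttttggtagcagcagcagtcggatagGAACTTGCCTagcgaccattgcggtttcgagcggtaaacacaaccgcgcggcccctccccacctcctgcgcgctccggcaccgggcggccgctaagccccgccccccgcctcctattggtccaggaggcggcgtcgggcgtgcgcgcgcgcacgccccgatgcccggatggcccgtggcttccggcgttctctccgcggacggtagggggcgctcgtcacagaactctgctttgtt
Bax, chr7:45466849-45467148, minus strand: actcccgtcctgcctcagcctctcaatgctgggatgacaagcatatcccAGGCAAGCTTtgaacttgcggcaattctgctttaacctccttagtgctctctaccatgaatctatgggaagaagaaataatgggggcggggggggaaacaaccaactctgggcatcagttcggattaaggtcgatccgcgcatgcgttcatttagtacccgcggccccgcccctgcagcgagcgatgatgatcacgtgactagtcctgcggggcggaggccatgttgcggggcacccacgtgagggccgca
Sesn1, chr10:41887189-41887488, plus strand: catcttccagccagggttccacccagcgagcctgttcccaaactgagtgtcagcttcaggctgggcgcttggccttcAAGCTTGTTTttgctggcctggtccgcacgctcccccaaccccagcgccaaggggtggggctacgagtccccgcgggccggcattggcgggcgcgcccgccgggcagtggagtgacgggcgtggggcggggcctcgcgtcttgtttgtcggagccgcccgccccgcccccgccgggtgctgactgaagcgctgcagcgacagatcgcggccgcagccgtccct
Counted from the transcription start, the first capital base lay at -185 in Ccng1, -186 in Mdm2, -201 in Bax and -173 at the downstream of the Sesn1 starts. The Cdkn1a window, at the upstream of its starts, held 2 half-sites, whose first bases were at -73 and -51. These 2 lie at most 13 bases apart and so formed a full site under the exact-match rule, which 0.0731% of all windows held. The 10 letters directly after the half-site at -51 miss the pattern only at their first base and are not in capitals. Which of these letters p53 binds was not tested. A match describes the letters and is not a measurement of binding. Windows without one, among them those of Bbc3 and Phlda3, hold no exact and complete match in these 300 bases. Sites with a mismatched letter, or cut by the end of a window, were not searched for, so a p53 site is not excluded there.

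On GRCm38 (GENCODE M21), Cdkn1a lies on chromosome 17 from 29090976 to 29100727, Ccng1 on chromosome 11 from 40748552 to 40755311 and Mdm2 on chromosome 10 from 117688875 to 117710758. Bax (45461697 to 45466898) and Bbc3 (16308393 to 16318205) are both on chromosome 7. Phlda3 lies on chromosome 1 from 135766119 to 135769136, Sesn1 on chromosome 10 from 41809935 to 41908424, Trp53inp1 on chromosome 4 from 11156431 to 11174379 and Zmat3 on chromosome 3 from 32334792 to 32366014. All 10 are protein-coding and the values cover whole genes. Cdkn1a is overlapped on the other strand by AC167363.2, Bax on its own strand by Gm45808 and Sesn1 on its own strand by 9930024M15Rik, so their values are uncertain where reads fall in the shared stretch. The library kit kept strand, but whether the counting used it is not given in the sources used here.

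Values are log2 abundances as deposited, so a difference of 1 is a doubling on that scale. Their transformation is not named in the sources used here, so the folds of low genes may be shrunken. Linear sums of the 48 samples were within 1.11-fold of each other, replicates of a condition correlated at 0.999 or more, and the read depth is unknown. Several facts of the libraries bear on the values below. STHdhQ7 replicate 1 was the lowest STHdhQ7 sample for all 10 members, and Bax stood at 10.38 in selisistat replicate 2 against 9.78 and 9.65 in the others. The neural progenitor gene Nes averaged 10.95 in STHdhQ7 but 4.96 in STHdhQ111 vehicle. Drd1, a marker of striatal neurons, was near the lowest value of the table (-2.18 against -2.34) in both lines. Of the other listed markers of these neurons, Bcl11b and Gad1 were below the minimum for testing and Ppp1r1b was low (2.05 in STHdhQ7 and 1.93 in STHdhQ111). Foxp1 went the other way, at 9.21 in STHdhQ7 and 9.99 in STHdhQ111 vehicle, a difference of -0.78 ± 0.0763. Nes reached 7.14 in haloperidol replicate 2. Most compounds shared no slot of collection day and time with the vehicle, so slot and treatment cannot be told apart for them. Each condition had 1 sample at each of collection times 1, 2 and 3, so the time alone was balanced. A reference matched on these slots of day and time, described below as matched on collection time or time-matched, was computed as an alternative. No vehicle sample came from the slots of butyrate, trichostatin A, loxapine, pizotifen or meclizine. For these the matched reference is therefore samples of other compounds and not vehicle, so a shift may come from either. Cyproheptadine and DKI had no sample from collection day 1.

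Across the 16 conditions, the condition means of Cdkn1a spanned 1.47 log2 units, those of Trp53inp1 1.32, Phlda3 1.30, Ccng1 1.06 and Mdm2 1.051. The spans were smaller for Pmaip1 (0.94), Bbc3 (0.87), Zmat3 (0.65), Sesn1 (0.57) and Bax (0.50). The median SD among 3 replicates lay between 0.0568 for Pmaip1 and 0.118 for Bbc3. STHdhQ7 vehicle had the highest mean for 6 members, Cdkn1a, Ccng1, Mdm2, Bbc3, Phlda3 and Trp53inp1, and the lowest for Pmaip1. Sodium butyrate had the lowest mean for Ccng1, Bbc3, Trp53inp1 and Zmat3, and trichostatin A for Cdkn1a, Mdm2, Bax and Phlda3. In the middle of each order, neighbours did not differ beyond their spread: of 15 neighbouring pairs of conditions, the sample values overlapped in 12 for Cdkn1a, in 13 for Ccng1, Bbc3, Pmaip1 and Phlda3, in 14 for Mdm2 and Trp53inp1, and in all 15 for Bax, Sesn1 and Zmat3.

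**Figure D1:**
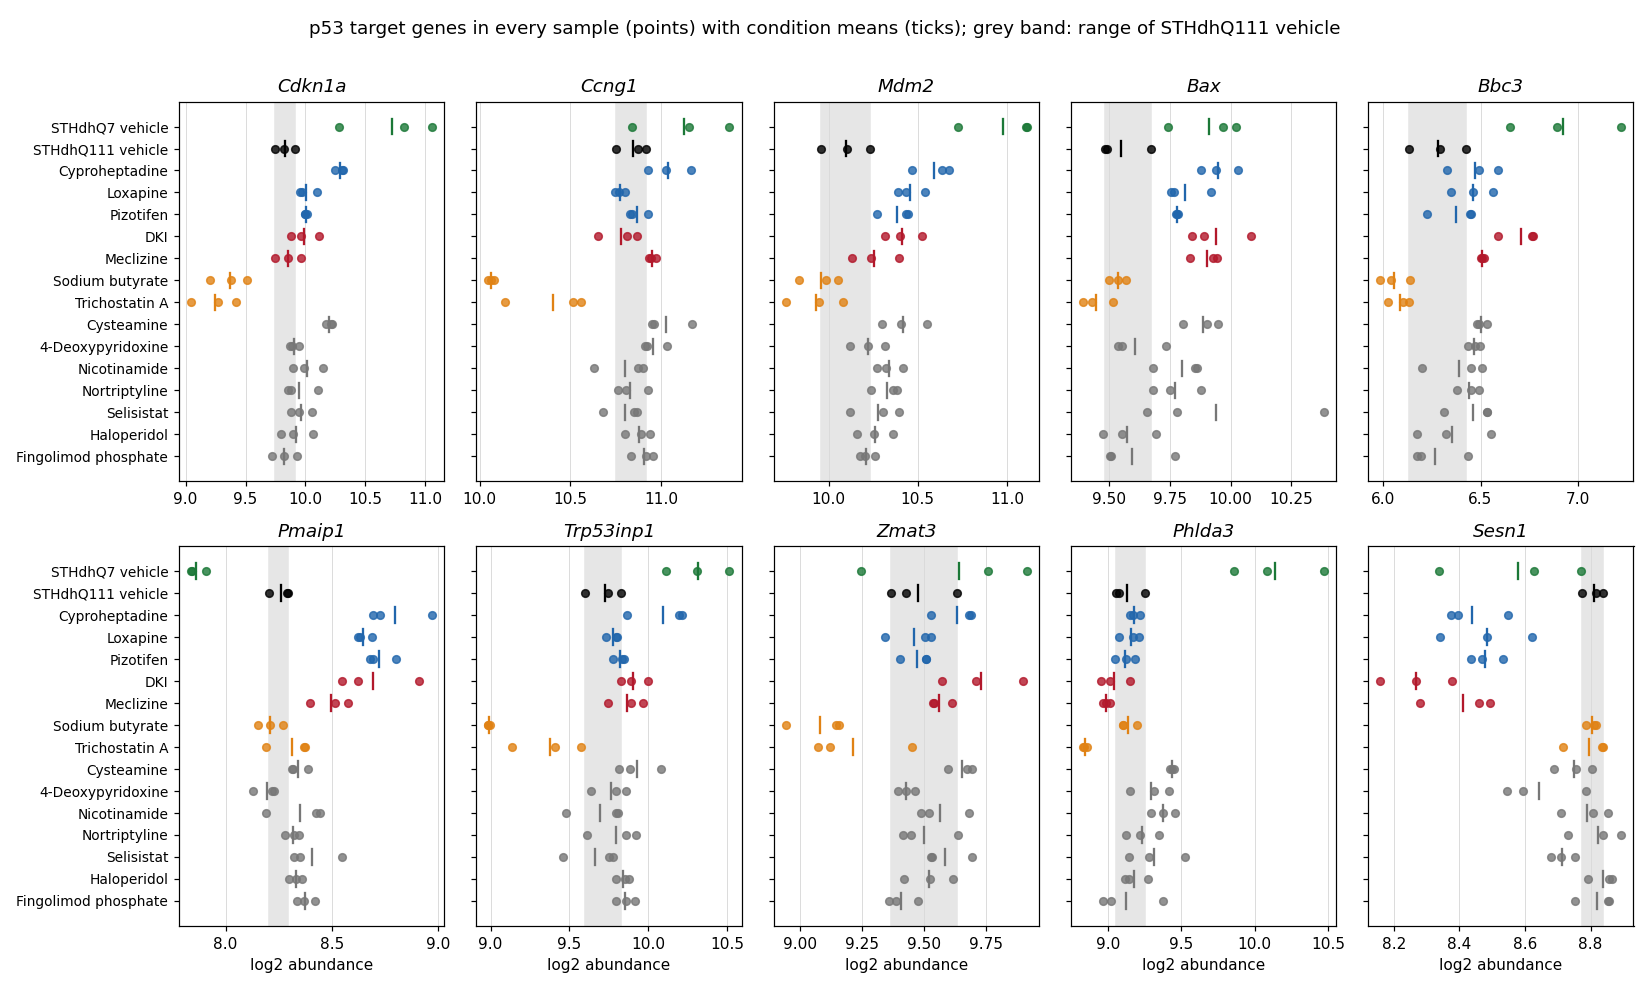
Log2 abundance of the 10 p53 target genes (horizontal axes, 1 panel a gene) in each of 48 samples, by condition (vertical axis). Points are samples, ticks are means of 3, and the grey band is the range of the STHdhQ111 vehicle samples. STHdhQ7 (green) lies to the right of the band for Cdkn1a, Mdm2 and Phlda3 and to the left for Pmaip1. Sodium butyrate and trichostatin A (orange) lie to the left for Ccng1, Cdkn1a and Trp53inp1, and the Group A (blue) and Group B (red) compounds lie to the left for Sesn1.

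The comparison of the vehicle controls asks how the target genes differ between the wild-type and the mutant line under serum starvation. In STHdhQ7, Cdkn1a, Mdm2 and Phlda3 stood well above STHdhQ111, and Pmaip1 stood below. Cdkn1a was at 10.28, 11.06 and 10.82 in STHdhQ7 and at 9.91, 9.75 and 9.82 in STHdhQ111. Every STHdhQ7 value lay above every STHdhQ111 value, and the difference was 0.89 ± 0.111 (log2, SE, n = 3 and 3), a fold of 1.86. Mdm2 was at 10.72, 11.11 and 11.11 against 10.23, 10.10 and 9.95, higher by 0.88 ± 0.0936 with no overlap. Phlda3, a protein with a single pleckstrin homology domain that restrains the kinase Akt, was at 9.86, 10.47 and 10.09 against 9.05, 9.07 and 9.25. Its difference of 1.01 ± 0.101, a fold of 2.02, was the widest of the 10.

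Ccng1 differed less between the lines. It was at 10.84, 11.38 and 11.16 in STHdhQ7 and at 10.92, 10.87 and 10.75 in STHdhQ111. STHdhQ7 replicate 1 lay inside the STHdhQ111 range, so the lines overlapped, and the difference was 0.28 ± 0.0944. Without STHdhQ7 replicate 1 it was 0.43, and without replicate 2 it was 0.15. Trp53inp1, a stress protein that acts with p53 in autophagy and apoptosis, was higher by 0.59 ± 0.105, at 10.11, 10.51 and 10.31 against 9.82, 9.75 and 9.60, with no overlap.

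The apoptosis genes did not go one way. Bbc3, a BH3-only activator of Bax, was at 6.65, 7.22 and 6.89 in STHdhQ7 against 6.29, 6.13 and 6.43, a difference of 0.64 ± 0.105. Bax, which forms the pore in the outer mitochondrial membrane, was at 9.74, 10.02 and 9.97 against 9.49, 9.49 and 9.67, higher by 0.36 ± 0.106. Pmaip1, the other BH3-only gene among the members, was lower, at 7.84, 7.84 and 7.91 against 8.29, 8.29 and 8.21, a difference of -0.40 ± 0.0756. Each of these 3 genes was without overlap between the lines. Sesn1, a sestrin that restrains the growth kinase mTORC1, was at 8.34, 8.77 and 8.63 against 8.84, 8.77 and 8.82, a difference of -0.23 ± 0.0781 that shrank to -0.10 without STHdhQ7 replicate 1. Zmat3, an RNA-binding protein, was at 9.25, 9.92 and 9.76 against 9.63, 9.43 and 9.37, which overlapped, and its difference of 0.16 ± 0.106 became 0.38 without STHdhQ7 replicate 1 and 0.02 without replicate 2.

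In the limma fit across all genes (called at an adjusted p under 0.05), the calls included 9 of the 10 members, a description since the members were chosen with results known, 7 higher and 2 lower, and 55.8% of all 13409 genes tested were called, 29.2% higher and 26.6% lower. The sample values of 8 members did not overlap, against 58.2% of all genes. The list of other p53 targets, which holds 32 known targets outside the 10, had 31 genes tested, and 24 of these (77.4%, against 55.8% of all genes) passed the test, 18 higher and 6 lower in STHdhQ7, with a median difference of 0.27 beside 0.00 over all genes. Perp, a membrane protein of p53-dependent apoptosis, was higher by 1.09 ± 0.0985 (adjusted p = 3.14e-12, limma). Pltp, a phospholipid transfer protein, was higher by 1.00 ± 0.0812 (adjusted p = 1.84e-13), and the thiamine transporter Slc19a2 by 0.89 ± 0.0792 (adjusted p = 2.46e-12). Among genes lower in STHdhQ7, the autophagy regulator Dram1 differed by -0.52 ± 0.0623 (adjusted p = 3.2e-09), the peptide transporter Tap1 by -0.52 ± 0.105 (adjusted p = 6.34e-05) and the DNA damage sensor Ddb2 by -0.38 ± 0.115 (adjusted p = 0.00502). Of 10 tested genes of apoptosis and its restraint, 8 were higher and 0 lower, while of 5 genes of DNA repair and nucleotide supply 1 was higher and 1 lower. Markers of cell type moved with this comparison as well. All 4 tested neural progenitor markers were higher in STHdhQ7, Nes by 5.99, Sox2 by 4.10, Pax6 by 2.59 and Vim by 0.17. The summed level of the 5 listed was 15.58 to 15.74 against 15.38 to 15.51. Summed levels add linear values, so Vim, at 15.60 in STHdhQ7 and 15.42 in STHdhQ111, makes up most of this sum. The leukocyte gene Ptprc was lower by 2.73 (7.36 to 8.33 against 10.47 to 10.75), while the microglial genes Aif1 and Cx3cr1 were below the minimum for testing. Of 4 fibroblast markers 2 were lower, Col1a2 by 2.69 and Pdgfra by 1.33, and Col1a1 (0.02 ± 0.119) and Dcn (-0.07 ± 0.145) did not pass the test. The fibroblast sum was 14.42 to 14.93 against 14.96 to 15.16. Their part in the p53 target differences was not tested, and fewer cells of a type and less RNA per cell cannot be told apart in bulk samples.

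**Figure D2:**
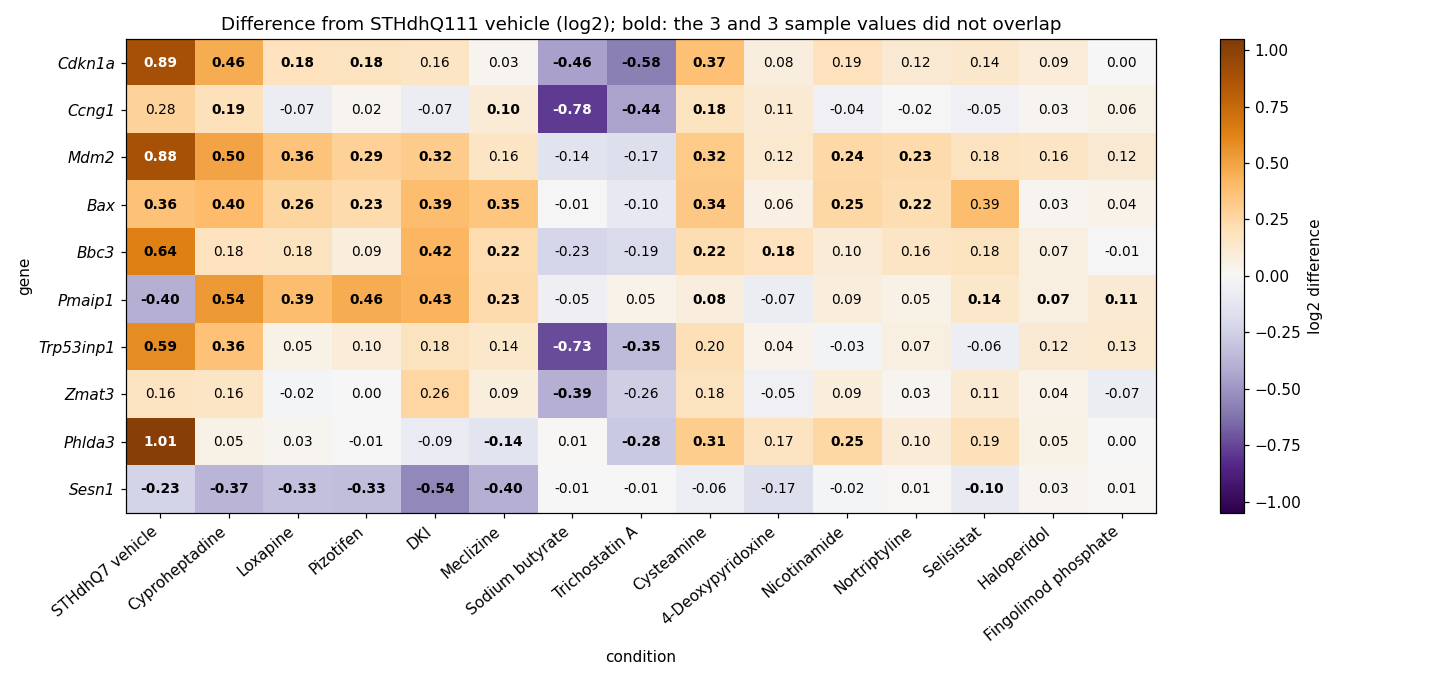
Difference from STHdhQ111 vehicle on the log2 scale for the 10 genes (rows) in STHdhQ7 vehicle and under each of 14 compounds (columns), with the fitted value in each cell and orange for higher and purple for lower. Bold marks the cells where the 3 samples and the 3 vehicle samples did not overlap. Butyrate was lowest for Ccng1 (-0.78) and Trp53inp1 (-0.73), and Sesn1 was below vehicle under all 5 Group A and Group B compounds (-0.33 to -0.54).

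The butyrate comparison asks what the short-chain fatty acid, an inhibitor of histone deacetylases, did to these genes in STHdhQ111, and trichostatin A, a hydroxamate inhibitor of the same enzymes, can be set beside it. Ccng1, Cdkn1a and Trp53inp1 lay below vehicle under both. Under butyrate Ccng1 was at 10.05, 10.06 and 10.08, and under trichostatin A at 10.14, 10.56 and 10.51, against 10.92, 10.87 and 10.75 in vehicle. All 6 treated samples lay below all 3 vehicle samples, and the differences were -0.78 ± 0.0944 and -0.44 ± 0.0944, or 1.72-fold and 1.36-fold lower. No other condition had a Ccng1 mean below that of trichostatin A except butyrate. Trp53inp1 was at 8.987, 8.986 and 8.996 under butyrate, a difference of -0.73 ± 0.105, and at 9.14, 9.57 and 9.41 under trichostatin A, a difference of -0.35 ± 0.105, with vehicle at 9.82, 9.75 and 9.60. None of these treated samples reached the vehicle range. Cdkn1a was at 9.21, 9.52 and 9.38 under butyrate (-0.46 ± 0.111) and at 9.05, 9.42 and 9.27 under trichostatin A (-0.58 ± 0.111). Since the doses, 1 mM and 10 nM, differ, the values of the inhibitors stand side by side with no comparison.

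Zmat3 was at 8.94, 9.15 and 9.16 under butyrate, below every vehicle value, and differed by -0.39 ± 0.106. Under trichostatin A it was at 9.07, 9.45 and 9.12 and overlapped with vehicle. Phlda3 was at 8.86, 8.83 and 8.84 under trichostatin A, a difference of -0.28 ± 0.101, and at 9.10, 9.20 and 9.10 under butyrate, a difference of 0.01. Mdm2, Bax, Bbc3, Pmaip1 and Sesn1 overlapped with vehicle under both inhibitors, with differences from -0.23 to 0.05 and standard errors of 0.0756 to 0.106. With the reference matched on collection time, the butyrate differences of Mdm2 and Bax were -0.38 and -0.25 in place of -0.14 and -0.01, that of Cdkn1a was -0.61, that of Bbc3 was -0.36 in place of -0.23, and that of Phlda3 was -0.17 ± 0.0873 in place of 0.01. The trichostatin A difference of Mdm2 was -0.31 in place of -0.17. The values of Ccng1 (-0.75 and -0.49) and Trp53inp1 (-0.76 and -0.47) moved less.

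Under butyrate 4 of the 10 members were called, all lower, beside 17.8% of all genes called lower, 19.6% called higher and 37.5% in all, and with the time-matched reference the count was 7, all lower. Under trichostatin A 3 were called, all lower, beside 6.68%, 6.41% and 13.1%. Under each inhibitor 4 members did not overlap with vehicle, beside 48.8% of all genes for butyrate and 31.0% for trichostatin A. Of the 31 other p53 targets, 15 (48.4%, against 37.5% of all genes) passed the test under butyrate, 4 higher and 11 lower, with a median difference of -0.08 beside 0.02 over all genes. With the time-matched reference 16 passed, 1 higher and 15 lower. Eda2r, a receptor of the tumour necrosis factor family, fell by 0.96 ± 0.131 on the log2 scale (adjusted p = 4.16e-07, limma), from 8.29, 8.30 and 8.07 to 7.19, 7.28 and 7.30. Aen, an apoptosis-enhancing nuclease, differed by -0.52 ± 0.0803 (adjusted p = 3.37e-06) and the D-glutamate cyclase gene Dglucy by -0.49 ± 0.122 (adjusted p = 0.00156). The secreted factor Gdf15 rose by 0.44 ± 0.139 (adjusted p = 0.0125), Dram1 by 0.34 ± 0.0623 (adjusted p = 5.08e-05) and Pltp by 0.31 ± 0.0812 (adjusted p = 0.00251). Under trichostatin A 9 of 31 passed, 2 higher and 7 lower, Eda2r among the latter (-0.48 ± 0.131, adjusted p = 0.0114, limma). The messenger of p53 itself, Trp53, was at 10.62, 10.73 and 10.61 under butyrate against 10.75, 10.77 and 10.81, a difference of -0.13 ± 0.0511 (adjusted p = 0.0485, limma). Markers moved under butyrate as well, with 3 of 4 fibroblast markers higher, Dcn by 0.59, Pdgfra by 0.37 and Col1a1 by 0.35 (list sum 15.26 to 15.42 against 14.96 to 15.16). Of 4 neural progenitor markers 1 was higher, Nes, by 1.29. The sum of that list was 15.46 to 15.60 against 15.38 to 15.51, but most of it is Vim, which did not pass the test (0.08 ± 0.0738). The astrocyte gene Slc1a3 was higher by 0.41, with Gfap below the minimum for testing. Their part in the p53 target differences was not tested.

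**Figure D3:**
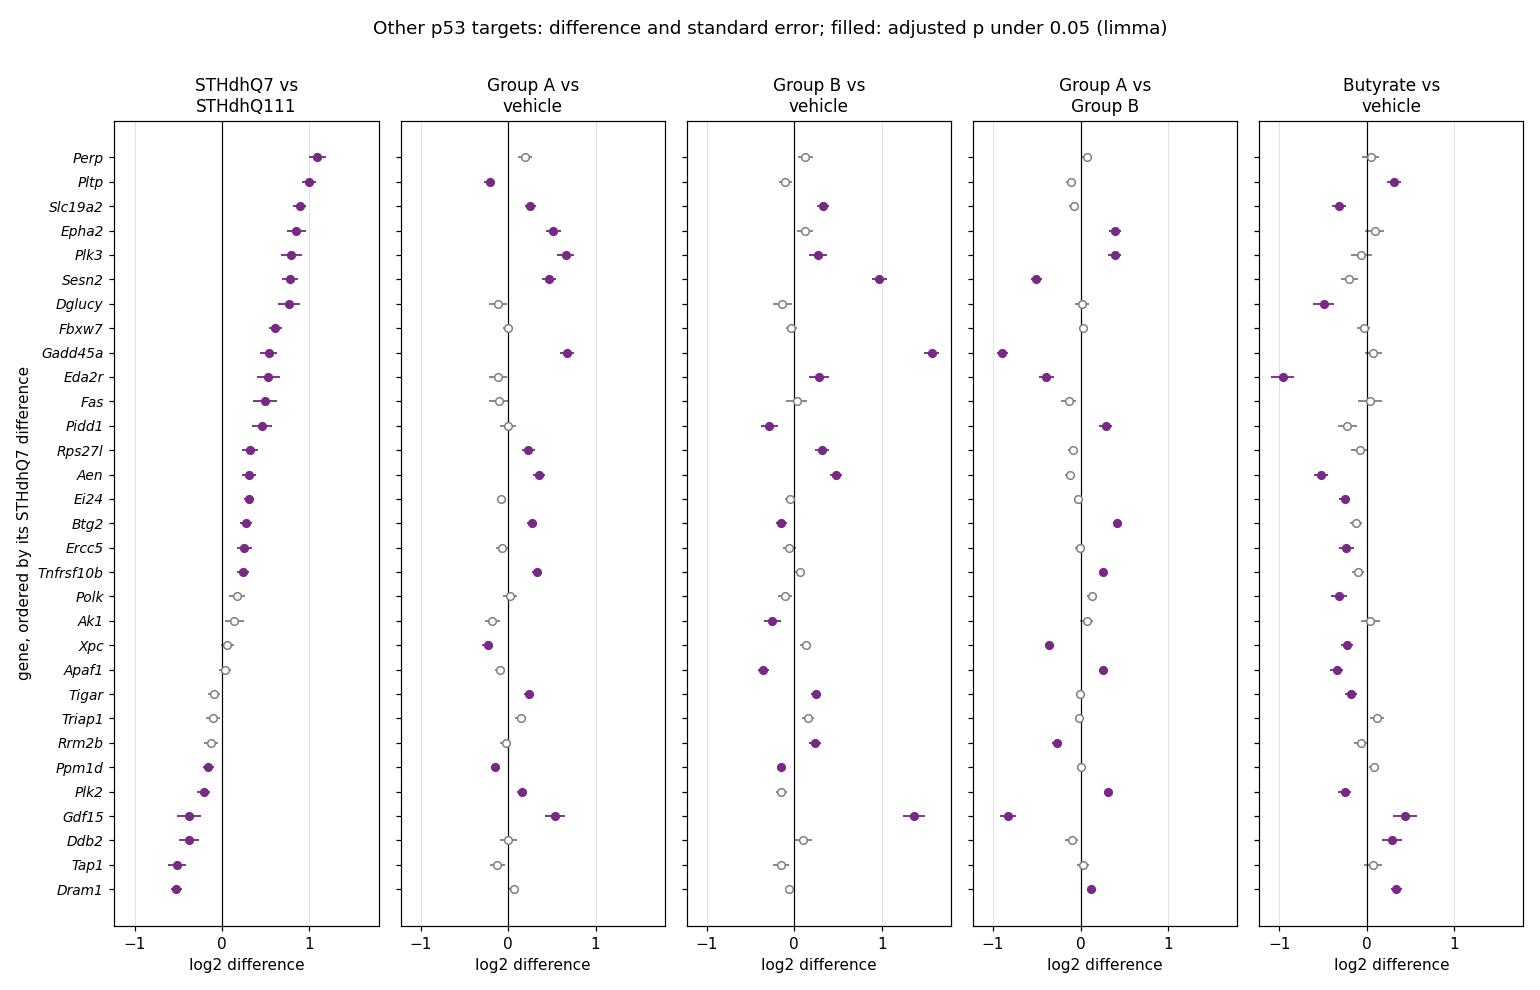
Log2 difference (horizontal axes) with its standard error for 31 other p53 targets (rows, ordered by their STHdhQ7 difference) in 5 comparisons (panels). Filled points passed the limma test at an adjusted p of 0.05, and open points did not. In STHdhQ7 18 genes were higher and 6 lower, under butyrate 4 were higher and 11 lower, and Gadd45a and Gdf15 stood out under Group B at 1.57 and 1.37.

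The Group A and Group B comparisons ask what the compounds that the study clustered together did to the target genes. Both groups held Sesn1 below vehicle and Pmaip1 and Bax above it. Sesn1 lay between 8.34 and 8.62 in the 9 Group A samples and between 8.16 and 8.49 in the 6 Group B samples, and every one lay below the vehicle samples at 8.84, 8.77 and 8.82. The differences were -0.34 ± 0.0639 and -0.47 ± 0.0679. DKI, at 8.16, 8.38 and 8.27, was the lowest of all 16 conditions. Pmaip1 lay between 8.63 and 8.97 in Group A and between 8.40 and 8.91 in Group B, all above vehicle at 8.29, 8.29 and 8.21, and differed by 0.46 ± 0.0618 and 0.33 ± 0.0657. Bax lay at 9.75 to 10.03 in Group A and 9.83 to 10.08 in Group B, above vehicle at 9.49, 9.49 and 9.67, by 0.30 ± 0.0867 and 0.37 ± 0.0921. With the time-matched reference, Sesn1 differed by -0.36 in Group A and -0.45 in Group B. Pmaip1 then differed by 0.38 and 0.24, and Bax by 0.20 and 0.30.

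Cdkn1a and Mdm2 lay above vehicle in all 9 Group A samples. Their Group A differences were 0.27 and 0.38, and 0.22 and 0.27 with the time-matched reference. Under cyproheptadine, an antihistamine that also blocks serotonin receptors, Cdkn1a was at 10.31, 10.31 and 10.24 (0.46 ± 0.113) and Mdm2 at 10.63, 10.67 and 10.47 (0.50 ± 0.0947), all above vehicle. Loxapine, a dibenzoxazepine antipsychotic, gave 9.96, 10.10 and 9.97 for Cdkn1a (0.18 ± 0.111) and 10.39, 10.54 and 10.44 for Mdm2 (0.36 ± 0.0936). Pizotifen, related to cyproheptadine by its tricyclic piperidine frame but used at 5 µM rather than 10 µM, gave 10.01, 10.00 and 9.99 for Cdkn1a and 10.43, 10.44 and 10.27 for Mdm2. Since these doses differ, the values stand side by side with no comparison. Trp53inp1 was at 10.19, 10.21 and 9.87 under cyproheptadine, above vehicle by 0.36 ± 0.106, and overlapped with vehicle under the other compounds of both groups. Ccng1 was close to vehicle in both groups, by 0.05 ± 0.0772 in Group A and 0.02 ± 0.082 in Group B, although its 3 cyproheptadine samples (11.16, 11.03 and 10.93) and its 3 meclizine samples (10.97, 10.93 and 10.94) lay above all 3 vehicle samples.

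In Group B, Bbc3 was higher, at 6.77, 6.59 and 6.76 under DKI (0.42 ± 0.107) and at 6.50, 6.52 and 6.51 under meclizine (0.22 ± 0.105) against 6.29, 6.13 and 6.43. Cdkn1a was at 9.88 to 10.12 under DKI and 9.74 to 9.96 under meclizine and overlapped with vehicle, with a Group B difference of 0.09 ± 0.0967. Mdm2 differed by 0.24 ± 0.0814 in Group B with overlap, and Phlda3 by -0.11 ± 0.0876. With the time-matched reference these differences were 0.18 and -0.17. Zmat3 was at 9.90, 9.57 and 9.71 under DKI, its highest mean among the 16 conditions, but overlapped with vehicle. Between Group A and Group B the 10 genes differed by -0.17 to 0.18, and the sample values of all 10 overlapped. Over all genes the values of 10.6% did not overlap, so for 10 genes this is near the share of all genes.

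In Group A 5 members were called, 4 higher and 1 lower, beside 32.8% of all genes, 15.6% higher and 17.2% lower. In Group B 5 were called as well, 4 higher and 1 lower, beside 41.0%, 19.8% higher and 21.2% lower. Without STHdhQ111 vehicle replicate 2 the count was 3 in each. The sample values of 5 members in Group A and 4 in Group B did not overlap with vehicle, beside 22.3% and 32.8% of all genes. Between the groups 4 members were called, 3 higher and 1 lower in Group A, beside 41.3%, 19.9% and 21.4%, and the count was 0 without cyproheptadine replicate 1, without pizotifen replicate 1 or without DKI replicate 3. By compound, 6 were called under cyproheptadine (35.6% of all genes), 6 under DKI (42.3%), and 3 each under meclizine (26.8%), loxapine (21.9%) and pizotifen (17.9%). Of the 31 other p53 targets 15 passed the test in Group A, 12 higher and 3 lower, and 15 in Group B, 10 higher and 5 lower, in each a share of 48.4% against 32.8% and 41.0% of all genes. With the time-matched reference the Group A count was 20, 12 higher and 8 lower. The medians, 0.02 and 0.07, were near the 0.00 of all genes. Gadd45a, which responds to growth arrest and DNA damage, rose in both, by 0.67 ± 0.0812 in Group A (adjusted p = 4.55e-08, limma) and by 1.57 ± 0.0863 in Group B (adjusted p = 1.41e-16, limma). Its DKI samples were at 10.01, 9.68 and 9.87 and its meclizine samples at 9.89, 9.44 and 9.70, against 8.15, 8.22 and 8.21 in vehicle. Gdf15 rose by 0.54 ± 0.114 (adjusted p = 3e-04) and 1.37 ± 0.121 (adjusted p = 1.23e-11, limma). The kinase Plk3 rose by 0.66 ± 0.0971 in Group A (adjusted p = 1.57e-06) and Sesn2, the stress-induced paralog of Sesn1, by 0.97 ± 0.0837 in Group B (adjusted p = 6.67e-12), where Sesn1 was lower. Among genes called lower, Xpc, Pltp and Ppm1d did so in Group A, by 0.24, 0.21 and 0.14 on the log2 scale (adjusted p = 0.00169, 0.012 and 0.0203, limma). In Group B, Apaf1, the scaffold of the apoptosome, fell by 0.36 ± 0.0623 on the log2 scale (adjusted p = 1.3e-05, limma), Pidd1 by 0.29 ± 0.0973 (adjusted p = 0.0163) and Ak1 by 0.25 ± 0.0935 (adjusted p = 0.0295).

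Between Group A and Group B 14 of 31 other targets passed the test, 8 higher in Group A and 6 lower, a share of 45.2% near the 41.3% of all genes. The antiproliferative gene Btg2 was higher in Group A by 0.42 ± 0.0444 (adjusted p = 9.15e-10, limma), Plk3 by 0.39 ± 0.0767 (adjusted p = 7.12e-05) and the receptor kinase gene Epha2 by 0.39 ± 0.0689 (adjusted p = 1.45e-05). Gadd45a differed by -0.90 ± 0.0641 (adjusted p = 4.36e-14), Gdf15 by -0.83 ± 0.0899 (adjusted p = 1.19e-09) and Sesn2 by -0.51 ± 0.0622 (adjusted p = 1.71e-08, limma). Gadd45a, Gdf15, Sesn2 and Tnfrsf10b of that list, and Bbc3 and Pmaip1 of the members, are also known targets of ATF4 or CHOP (Ddit3), the transcription factors of the integrated stress response. A list of 6 genes of that response rose in full in Group A (6 of 6, median 1.02) and in Group B (6 of 6, median 1.63). Of all genes, 32.8% and 41.0% were called in these comparisons. Ddit3 rose by 0.74 ± 0.102 (adjusted p = 6.44e-07, limma) and 1.72 ± 0.109 (adjusted p = 3.91e-15), and the pseudokinase gene Trib3 by 1.63 ± 0.171 (adjusted p = 3.09e-09) and 2.84 ± 0.182 (adjusted p = 4.43e-15). The summed level of the list was 13.05 to 13.20 under loxapine and 13.65 to 14.03 under DKI, against 12.41 to 12.49 in vehicle. Its part in the Bbc3 and Pmaip1 differences was not tested. In STHdhQ7 5 of the 6 were higher (summed level 12.90 to 13.22), beside 29.2% of all genes called higher and 55.8% called in all. There Bbc3 stood above STHdhQ111 (0.64 ± 0.105) and Pmaip1 below it (-0.40 ± 0.0756), and the part of the list in this was not tested either.

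Mitotic genes that p21 is known to lower through DREAM were counted as a list of 12. The part of Cdkn1a in their levels here was not tested. In Group B 12 of 12 fell (100%, beside 41.0% of all genes called), with a median of -0.42 (-0.38 under meclizine and -0.48 under DKI). Cdkn1a stood at 0.09 ± 0.0967 there. Mki67 fell by 0.72 ± 0.0928 on the log2 scale (adjusted p = 6.63e-08, limma) and the kinase gene Plk1 by 0.70 ± 0.0618 (adjusted p = 1.17e-11). In Group A 3 of 12 fell (25%, beside 32.8% of all genes), with Cdkn1a at 0.27 ± 0.091. All 12 were higher in Group A than in Group B (100%, beside 41.3% of all genes), with a median difference of 0.43. In STHdhQ7, with Cdkn1a at 0.89, 4 of the 12 were higher and 2 lower (50%, near the 55.8% of all genes). Under butyrate, with Cdkn1a at -0.46, 3 were higher and 1 lower (33.3%, near the 37.5% of all genes). The higher ones included Aurkb at 0.35 ± 0.0731 (adjusted p = 0.000252, limma) and Cdk1 at 0.31 ± 0.0599 (adjusted p = 0.000111, limma). Under trichostatin A, where Cdkn1a was lowest, 1 was higher and 0 lower (8.33%, beside 13.1% of all genes). Cell type markers differed in both groups. Of 4 fibroblast markers Col1a1 and Col1a2 fell, by 0.29 and 0.34 on the log2 scale in Group A and by 0.71 and 0.54 in Group B, and the list sum was 14.50 to 15.06 in Group A and 14.14 to 14.59 in Group B against 14.96 to 15.16 in vehicle. Slc1a3 fell by 0.44 in Group A and by 0.42 in Group B on the log2 scale. Ptprc fell by 0.42 on the log2 scale in Group A, and of 4 neural progenitor markers Vim fell by 0.36 in Group B, where the list sum was 14.79 to 15.23 against 15.38 to 15.51. Their part in the differences of p53 targets and mitotic genes was not tested.

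**Figure D4:**
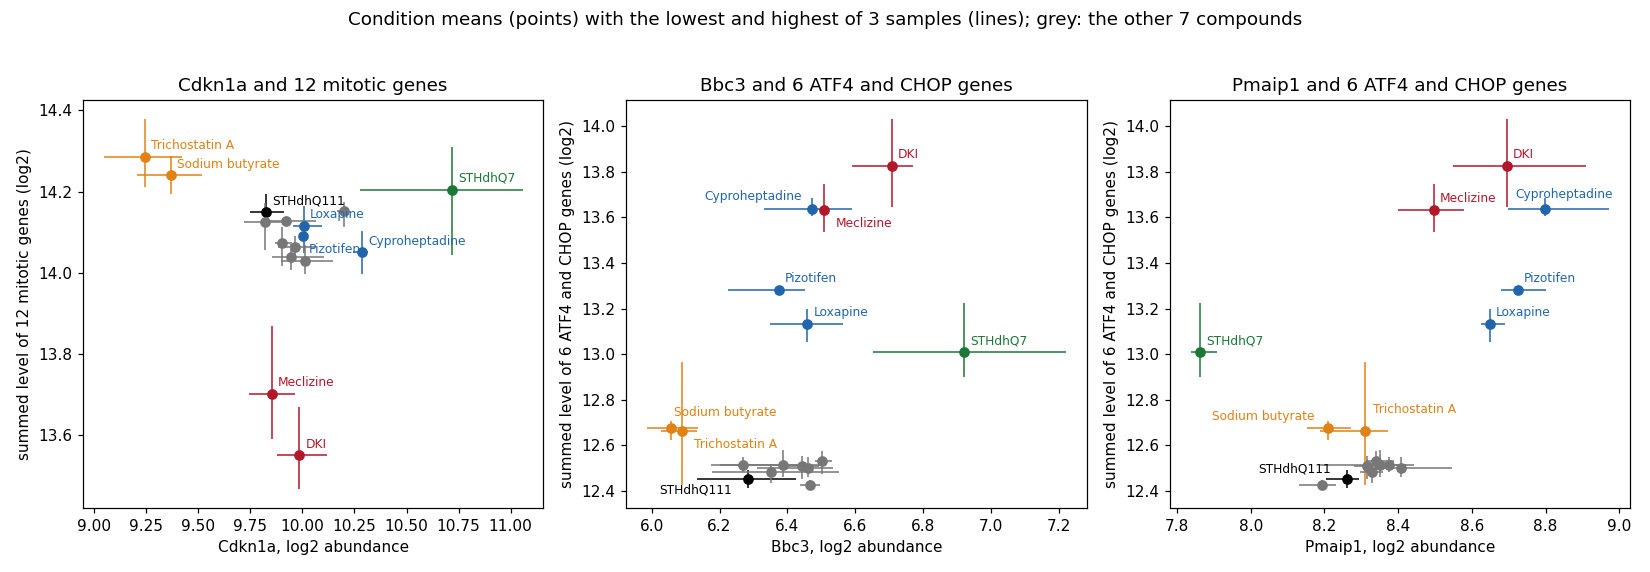
Condition means of Cdkn1a, Bbc3 and Pmaip1 (horizontal axes, log2 abundance) against the summed level of 12 mitotic genes or of 6 ATF4 and CHOP genes (vertical axes, log2 of the sum), with lines from the lowest to the highest of 3 samples. DKI and meclizine (red) have the lowest mitotic sums, 13.46 to 13.87, at Cdkn1a values near those of vehicle. For Pmaip1 the 5 Group A and Group B compounds (blue and red) have the highest means on both axes, and STHdhQ7 (green) is lowest on the horizontal one.

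Trp53, the gene of p53, was at 10.73, 10.73 and 10.71 in STHdhQ7 and 10.75, 10.77 and 10.81 in STHdhQ111, a difference of -0.05 ± 0.0511 (adjusted p = 0.4, limma). DKI had the highest Trp53, at 11.10, 11.06 and 11.05, 0.30 ± 0.0516 above vehicle (adjusted p = 1.18e-05, limma), and meclizine, at 10.91, 10.80 and 10.84, differed by 0.07 ± 0.0511 (adjusted p = 0.32). Mdm4, the partner of Mdm2 in restraining p53, was higher in STHdhQ7, at 8.80, 8.94 and 8.86 against 8.67, 8.69 and 8.38, by 0.29 ± 0.0905 (adjusted p = 0.00713, limma), and did not pass the test in Group A, Group B or butyrate. Of 13 tested genes of p53 and its regulators, 7 fell and 2 rose under butyrate (69.2%, beside 37.5% of all genes called). In Group A 4 fell and 0 rose (30.8%, near the 32.8% of all genes). In Group B 4 fell and 3 rose (53.8%, beside 41.0%). The damage kinase gene Atm fell by 0.77 ± 0.104 on the log2 scale under butyrate (adjusted p = 3.1e-07, limma), and Hipk2, a kinase that phosphorylates p53, by 0.41 ± 0.0566 in Group A (adjusted p = 5.7e-07) and by 0.37 ± 0.0602 in Group B (adjusted p = 4.17e-06).

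Cysteamine, a thiol used at 250 µM, had several members above vehicle by small amounts. Cdkn1a was at 10.22, 10.17 and 10.21 (0.37 ± 0.111), Bax at 9.95, 9.80 and 9.90 (0.34 ± 0.106), Mdm2 at 10.55, 10.30 and 10.41 (0.32 ± 0.0936) and Phlda3 at 9.45, 9.42 and 9.44 (0.31 ± 0.101). None of these samples overlapped with vehicle. These 4 members were called, all higher, beside 7.83% of all genes, 2.33% called higher and 5.50% lower, and 7 of the 10 did not overlap, beside 29.3% of all genes. Among the 31 other p53 targets 2 passed the test, Rps27l (0.36 ± 0.0942, adjusted p = 0.0153, limma) and Gdf15 (0.44 ± 0.139, adjusted p = 0.0424). The vehicle shared no slot of collection day and time with cysteamine, so slot and compound cannot be told apart. Nicotinamide (0.5 nM) and nortriptyline (1 nM) came from the cysteamine slots. Their Bax (9.68 to 9.86 and 9.68 to 9.88) and Mdm2 samples (10.27 to 10.42 and 10.24 to 10.39) also lay above all vehicle samples. Phlda3 did so under nicotinamide (9.29 to 9.46) but overlapped under nortriptyline. Cdkn1a overlapped with vehicle under both, as did Bax and Mdm2 under 4-deoxypyridoxine, from the same slots.

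Under the remaining compounds no member was called. The share of all genes called was 20.1% for 4-deoxypyridoxine, 10.4% for nicotinamide, 3.83% for nortriptyline, 0.515% for selisistat, 0.0597% for fingolimod phosphate and 0% for haloperidol, for which limma called 0 genes and 397 of the 13409 had an unadjusted p under 0.05. Differences of the 10 members ran from -0.17 to 0.18 under 4-deoxypyridoxine, -0.04 to 0.25 under nicotinamide, -0.02 to 0.23 under nortriptyline and -0.07 to 0.13 under fingolimod phosphate. Selisistat ran from -0.10 to 0.39, the upper end being Bax with its high replicate 2, and haloperidol from 0.03 to 0.16. Of the 31 other targets 6 passed the test under 4-deoxypyridoxine, 1 each under nicotinamide and nortriptyline, and 0 under selisistat, fingolimod phosphate and haloperidol.

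The genes most like Ccng1 were found by Pearson's r over the 16 condition means, with the collection day removed, among 10733 genes whose mean reached 5, as a description over means that share 1 set of libraries. Trp53inp1 was first at 0.94 and Eda2r second at 0.89, followed by Vps36 at 0.86, Pomgnt1 at 0.85 and Mcrs1 at 0.84. Of the members, Cdkn1a (0.83) and Zmat3 (0.82) ranked 8 and 9, Bbc3 (0.72) 42 and Mdm2 (0.71) 49, while Bax was at 0.56, Phlda3 at 0.47, Pmaip1 at 0.06 and Sesn1 at -0.30. Without STHdhQ7, Trp53inp1 was at 0.95 and Cdkn1a at 0.85. Butyrate lay at the low end of all 5 leading genes, with differences from -0.15 for Pomgnt1 to -0.96 for Eda2r. Among the 45 pairs of members the median r was 0.62, with 33 positive and 12 negative. Cdkn1a and Mdm2 were at 0.96, and the negative pairs all included Pmaip1 or Sesn1.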

How the data were processed

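RNA-Seq was performed on 48 samples, 3 for each of 16 conditions. Per the labels and the study's methods, the authors trimmed single-end poly(A) reads with Trimmomatic 0.36, quantified them with RSEM on GRCm38.p5 and modelled collection day in DESeq2. The authors deposited 1 table of normalized log2 values, whose transformation is not named in the sources used here. It holds no counts, so depth is unknown. The members and all gene lists were chosen with earlier results of these data known. Differences came from limma 3.58.1 in R 4.3.3, with 16 conditions and collection day as terms, a trended prior and all 48 samples (30 residual degrees of freedom), over the 13409 genes with a symbol and a mean of at least 1. Benjamini-Hochberg adjusted p-values were called under 0.05, two-sided. The script was tested on simulated data. Triplicates were collected on 3 days, or on 2 for cyproheptadine and DKI, all from 1 line per genotype, and no source used here says more of how they were cultured, so p-values measure only the spread between these samples. Named other targets were the 3 highest and 3 lowest called per main comparison, other lists gave up to 4 examples by size, and Eda2r, Ddit3 in Group A and the cysteamine genes were named after their values were seen. Alternatives were no minimum mean, a minimum of 5, no collection day, a replicate block, rescaling, a time-matched reference and leaving out single samples.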

Additional observations from a re-analysis of the deposited data

Results flagged for a closer look

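Of 64 gene and group combinations examined for a sample far from the others by Dixon's criterion, 4 were found, and chance alone finds about 5% of such groups. In Group B (6 samples), Phlda3 stood at 9.149 in DKI replicate 1, with the nearest sample at 9.013. Ddb2 stood at 7.975 in DKI replicate 3, with the nearest at 7.657, and Xpc at 7.6524 in meclizine replicate 2, with the nearest at 7.761. In Group A (9 samples), Perp stood at 10.544 in cyproheptadine replicate 1, with the nearest at 10.175.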

How the results depend on the processing

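Among the recomputed counts of members or other p53 targets called in the 5 main comparisons, 190 lay within 1.5 times the count reported and 12 did not. With single samples left out, the members called ranged from 3 to 5 in Group A, from 3 to 5 in Group B and from 0 to 5 between Group A and Group B. The last was 1 with no minimum mean. With the reference matched on collection time, 7 members were called under butyrate, and the other targets called were 16 under butyrate (1 higher, 15 lower) and 20 in Group A (12 higher, 8 lower). Of the recomputed differences of single members, 1004 stayed within the replicate SD of the reported value, 16 moved by more, and no called value reversed. The causes of these shifts were not tested. Rescaling by the median moved all genes by -0.0135 to 0.0027.

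The replicate number was the collection day, except for cyproheptadine and DKI replicate 1, so a replicate block nearly repeats the day term and its counts are no independent check. Deviations of samples with the same number correlated at -0.0487 on average, against 0.0245 for other samples, and 9 of 120 pairs of conditions exceeded 0.1. Whether the day was already removed from the deposited values is not given, so these correlations cannot show whether samples were paired. With the replicate block, members called were 9 in STHdhQ7, 5 in Group A, 5 in Group B, 4 between the groups and 4 under butyrate, and other targets called were 24, 15, 16, 15 and 15. Alternatives without haloperidol replicate 2, without selisistat replicate 2 and with a time-matched reference for trichostatin A were added after the data were seen. Read depth is unknown, so the precision of low values cannot be given, and each condition rests on 3 samples.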
